A study of Mus musculus with 24 samples.

Results

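Livers taken 72 h after mice received an injection of tumor cells were compared with livers of mice that received saline alone, on the 8 arrays labelled 72 h among the 24 of the series. The host mice were male C57Bl/6 animals aged 8 weeks. Those of the tumor group were given 1000000 LL/2(LLC1) cells subcutaneously. The carrier was phosphate-buffered saline (PBS), and the control mice were given the same volume, 300 µl, of PBS without cells. The LL/2(LLC1) cells derive from the Lewis lung carcinoma, a tumor of C57BL mice. Both groups carried no other label of genotype or treatment. The 2 dye channels of an array held RNA from a tumor and a control liver, and each of 4 biological pairs was hybridised on 2 arrays with the dyes exchanged. The dye swaps share their RNA, so that the 8 arrays count as 4 replicates. The same design was used at 18 and 192 h, with 4 pairs each. The labels call the pairs biological replicates and do not say whether a sample was 1 animal or a pool, so that a p-value here measures the spread between these samples. That spread was estimated over the pairs of all 3 times.

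The liver answers a tumor or inflammation elsewhere in the body mainly through cytokines in the blood. In the acute phase response, interleukin 6 and related cytokines act through the gp130 receptor and STAT3 on hepatocytes, which raise the output of proteins such as serum amyloid A and fibrinogen, while bile acid synthesis, cytochrome P450 enzymes and other hepatocyte functions are often lowered. The liver also stores and exports lipid, and resident macrophages, the Kupffer cells, filter the portal blood. The groups of genes below were laid out along these functions.

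All values are the authors' deposited log ratios, read as log2, tumor over PBS, and averaged over the dye swaps of a pair. A value above 0 stands for more transcript in the tumor liver. No file names the dye of channel A. It was taken for Cy3 here, and all signs below would be opposite if it were Cy5. The base of the logarithm is also unstated, so that the values are given as they stand and not turned into folds. Of 10080 spots, the arrays gave values for 6028 to 8894, except the array of pair 3 with the tumor RNA in Cy5, which gave 977. Both orientations were measured for 6516, 4787, 850 and 5694 probes in pairs 1 to 4. A probe was tested where at least 3 of the 4 pairs had both orientations, which left 3390 probes for 3092 genes. Of these, 2794 rested on 3 pairs, and in 2634 the missing one was pair 3. The hepatocyte markers on the array, Hnf4a, G6pc, Pck1, Fabp1, Tdo2 and Ahsg, were all brighter than 1.5 times the background in both channels on at least 4 arrays. Hnf4a, G6pc and Pck1 were tested, with means of -0.020, -0.11 and 0.039. Tdo2 had both orientations in 2 pairs and Fabp1 and Ahsg in none, so that these were not tested.

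The dye weighed heavily on single arrays. Across the tested probes, the ratios of the dye-swapped arrays correlated at -0.070, 0.037, -0.16 and -0.0099 in pairs 1 to 4. Arrays of the same orientation correlated at 0.045 to 0.52, with a median of 0.23, and arrays of opposite orientation at -0.37 to 0.037, with a median of -0.19. A coefficient for the dye passed the test in 857 of the 3390 probes in a fit over the single arrays. After averaging of the swaps, pairs 1 and 2 correlated at 0.42, whereas pair 4 correlated at -0.25 with pair 1 and -0.18 with pair 2. All of these run across genes, which do not stand for replicates, and the dye swaps of a pair share their RNA.

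**Figure D1:**
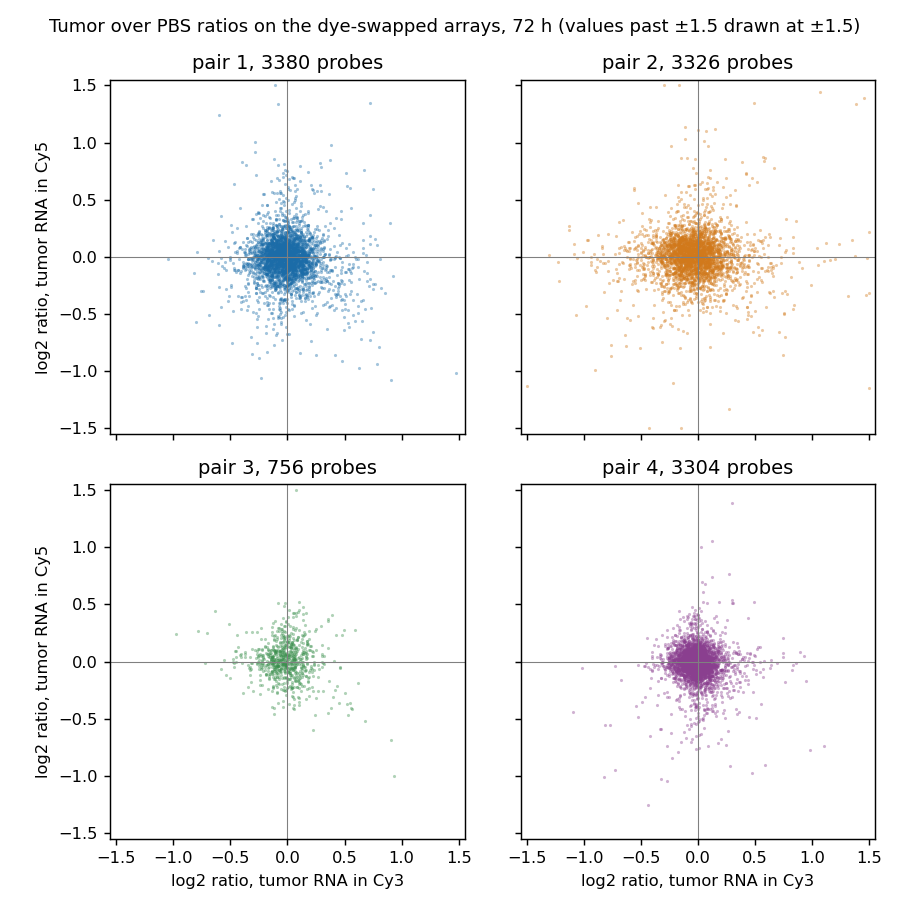
Each panel plots, for 1 of the 4 pairs at 72 h, the log2 ratio of tumor over PBS on the array with tumor RNA in Cy3 (x axis) against that on the array with tumor RNA in Cy5 (y axis), 1 point a tested probe. The clouds show no diagonal in any of the pairs, and that of pair 3 holds 756 probes against 3304 to 3380 in the others.

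No transcript passed the test at 72 h. In limma's fit, 0 of 3390 probes had an adjusted p under 0.05 (0%), and the smallest adjusted p was 0.597. An unadjusted p under 0.05 was reached by 172 probes (5.07%), where 169.5 would fall under that threshold if p-values were spread evenly. They comprised 66 with a higher level in the tumor livers (1.95%) and 106 with a lower level (3.13%). The ratio was above 0 in every measured pair for 306 probes (9.03%) and below 0 in every measured pair for 542 (16%). The median ratio of all tested probes was -0.012, with 1952 of 3390 below 0, and the median standard error was 0.058. The genes and groups below are therefore described by their values, and none of them is called changed.

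**Figure D2:**
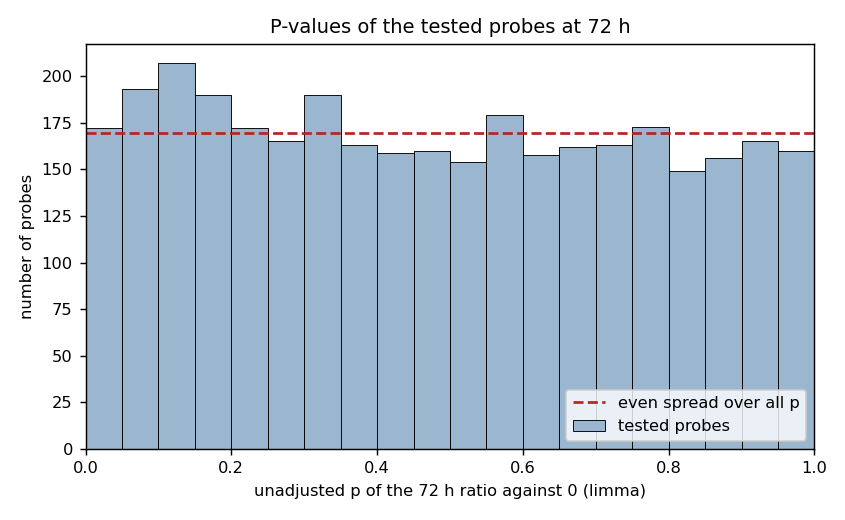
Bars give the number of tested probes (y axis) in each of 20 equal intervals of the unadjusted p of the 72 h ratio (x axis), and the dashed line marks an even spread at 169.5 probes. The first interval holds 172 probes, and the fullest, from 0.1 to 0.15, holds 207.

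The lowest p-value belonged to Actb, the cytoskeletal beta-actin that is often used as a reference gene. Its log2 ratios were -0.25, -0.13, -0.33 and -0.27 in pairs 1, 2, 3 and 4. All 4 pairs were below 0, as were 7 of the 8 arrays, and the mean was -0.24 ± 0.043 (SE, n = 4), with an adjusted p of 0.597 in limma's fit. The array that went the other way was that of pair 4 with tumor RNA in Cy3, at 0.17, against -0.71 on its dye swap. Plin2, which coats lipid droplets, had ratios of -0.26, -0.29 and -0.13 in pairs 1, 2 and 4 and a mean of -0.23 ± 0.056 (SE, n = 3). It was below 0 on all 7 arrays that measured it. Lpin2, a phosphatidate phosphatase on the path to triglycerides, was likewise below 0 on its 7 arrays, with -0.26, -0.26 and -0.12 in pairs 1, 2 and 4. Lifr, the receptor for leukemia inhibitory factor that signals together with gp130, gave -0.22, -0.94 and -0.33 in pairs 1, 2 and 4, so that its mean of -0.50 ± 0.13 (SE, n = 3) owed most to pair 2.

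The lower side held 8 further genes among the 12 of smallest p. Slc20a2, a sodium-dependent phosphate transporter, gave -0.14, -0.11 and -0.20 in pairs 1, 2 and 4, and Cpn2, the regulatory subunit of the plasma enzyme carboxypeptidase N, gave -0.056, -0.19, -0.33 and -0.16 in pairs 1, 2, 3 and 4. Both were below 0 in every measured pair. Ddx3x, an RNA helicase, had a mean of -0.18 ± 0.047 (SE, n = 3), and Eif3c, a subunit of the translation initiation factor eIF3, one of -0.23 ± 0.061 (SE, n = 3). Cyp27a1, the sterol 27-hydroxylase of the alternative bile acid pathway, followed at -0.19 ± 0.056 (SE, n = 3). Cdkn2b, an inhibitor of the cyclin-dependent kinases of G1 phase, stood at -0.20 ± 0.060 (SE, n = 4). Narf, a nuclear prelamin-binding protein, was the most even of them, with -0.13, -0.12 and -0.14 in pairs 1, 2 and 4. Usf2, a transcription factor of the helix-loop-helix class, stood between -0.18 and -0.093 in its 4 pairs. The adjusted p of each of these 8 genes, and of Plin2, Lpin2 and Lifr, was 0.877.

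On the higher side, the largest mean of all tested probes was that of Syvn1, the ubiquitin ligase that removes misfolded proteins from the endoplasmic reticulum (ER). Its ratios were 0.68, 1.26 and -0.12 in pairs 1, 2 and 4. Pair 4 thus lay on the other side of 0, and the mean of 0.60 ± 0.20 (SE, n = 3) came from pairs 1 and 2. The SE is that of the fit, which draws on all 3 times and on other probes. Over the 3 pairs of Syvn1 the standard deviation was 0.69. Macrod2, which removes ADP-ribose from proteins, and Ccsap, a protein of the centriole and spindle, also had their lowest value in pair 4, though above 0, with 0.40, 0.46 and 0.025 in pairs 1, 2 and 4 for Macrod2 and 0.44, 0.58 and 0.027 in pairs 1, 2 and 4 for Ccsap. More even values were found for Ido1, the enzyme that starts tryptophan breakdown along the kynurenine route outside hepatocytes. It gave 0.23, 0.25 and 0.13 in pairs 1, 2 and 4, with a mean of 0.20 ± 0.051 (SE, n = 3). Enho, which encodes the liver peptide adropin, gave 0.21, 0.23 and 0.071 in pairs 1, 2 and 4. Ctu1, needed for thiolation of transfer RNA, gave 0.13, 0.19 and 0.18 in pairs 1, 2 and 4, and Plcd1, a phospholipase C, gave 0.11, 0.21 and 0.12 in pairs 1, 2 and 4. Each of these was above 0 in all 3 measured pairs.

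Rpl29, a protein of the large ribosomal subunit, had ratios of 0.34, 0.22 and 0.11 in pairs 1, 2 and 4 and a mean of 0.22 ± 0.066 (SE, n = 3). Rpp30, a subunit of ribonuclease P, stood at 0.24 ± 0.069 (SE, n = 3). Lypd1, of the Ly6 family of membrane-anchored proteins, stood at 0.29 ± 0.090 (SE, n = 3), and Ubqln5, a ubiquilin, at 0.19 ± 0.050 (SE, n = 3). In Rpp30 and Ubqln5 the sign followed the dye. With tumor RNA in Cy3, Rpp30 gave 0.63, 0.91 and 0.36 in pairs 1, 2 and 4, against -0.19, -0.097 and -0.18 in Cy5. Ubqln5 gave 0.76, 0.52 and 0.43 in Cy3, against -0.24, -0.30 and -0.033 in Cy5. The last gene on the higher side, 4933417A18Rik, had a mean of 0.29 ± 0.077 (SE, n = 3). Pair 3 measured none of these 12 genes in both orientations. All 12 had an adjusted p of 0.877.

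**Figure D3:**
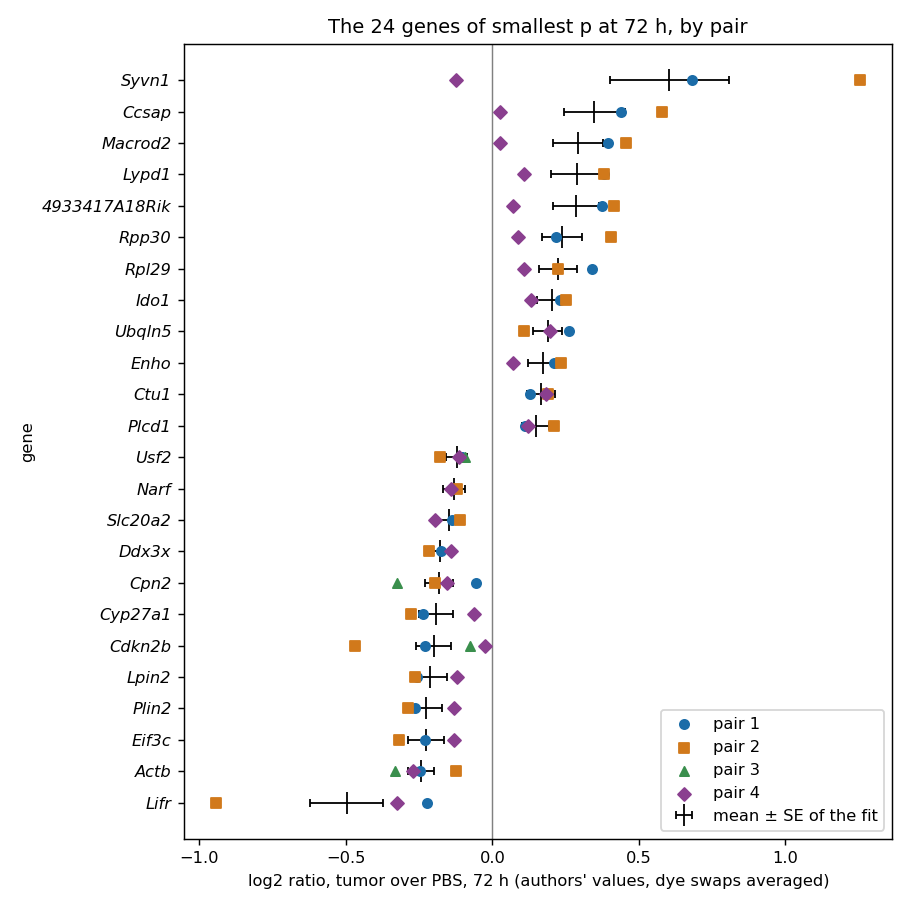
Points are the log2 ratios, tumor over PBS, of each pair at 72 h (x axis) for the 12 genes of smallest p on either side of 0 (y axis), and black marks are the mean with the standard error of limma's fit. Pair 4 lies nearest to 0 for most genes of the higher side and beyond it for Syvn1, and pair 3 appears for 4 of the lower genes only.

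No gene was above 0 on all 8 arrays, and 2 were below 0 on all 8. Csf2ra, the alpha chain of the receptor for granulocyte-macrophage colony-stimulating factor, had pair ratios of -0.029, -0.074, -0.17 and -0.13 in pairs 1, 2, 3 and 4 and a mean of -0.10 ± 0.037 (SE, n = 4), with an adjusted p of 0.877. F5, coagulation factor V, gave -0.17, -0.19, -0.058 and -0.14 in pairs 1, 2, 3 and 4. Its standard error was larger, at -0.14 ± 0.16 (SE, n = 4), because the fit shares the spread with the other time points, where its ratios ran from -0.84 to 0.37. A set of 596 probes was measured on all 8 arrays.

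Genes of bile acid synthesis and transport lay mostly below 0. Of 19 genes on the array 15 were tested and 13 were below 0, with a median of -0.11, beside 57.6% below 0 and a median of -0.012 over all probes. None passed the test. An unadjusted p under 0.05 was reached by 3 on the lower side and 1 on the higher side, beside 3.13% and 1.95% of all probes. Among the synthesis enzymes, Cyp27a1 gave -0.24, -0.28 and -0.064 in pairs 1, 2 and 4, and Amacr, the racemase that prepares the side chain for shortening, gave -0.26, -0.16 and -0.048 in pairs 1, 2 and 4. Among the transporters, Slc10a1, which takes bile acids up from the blood, gave -0.22, -0.34 and -0.011 in pairs 1, 2 and 4. The highest member was Fgfr4, the receptor that relays the intestinal signal to lower bile acid synthesis, at 0.088, 0.15 and 0.26 in pairs 1, 2 and 4. Further members, chosen after their values were seen, were the exporters Abcb11 at -0.089 and Abcc2 at -0.11 and the conjugating enzyme Baat at -0.094. Cyp7a1, the rate-limiting enzyme of the classical pathway, was measured in 2 pairs and was not tested. Pair by pair, the list had medians of -0.23, -0.16, 0.13 and 0.0055 in pairs 1 to 4, and the low values were those of pairs 1 and 2. The median of pair 3 came from 4 genes. With pairs 3 and 4 alone the median was 0.062.

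Lipid genes had a like share below 0 in synthesis and in oxidation. In lipogenesis and triglyceride synthesis 13 of 17 tested genes were below 0, with a median of -0.064, and the medians of the pairs were -0.091, -0.067, -0.060 and -0.081 in pairs 1 to 4. All 4 pairs were on the same side, with 6 genes measured in pair 3. Beside Plin2 and Lpin2, Fads1, the delta-5 desaturase, gave -0.051, -0.32 and -0.12 in pairs 1, 2 and 4 and Fads2, the delta-6 desaturase, gave -0.14, -0.14 and -0.081 in pairs 1, 2 and 4. Fasn, the fatty acid synthase, stood at 0.032 and Srebf1, the transcription factor that drives lipogenesis, at 0.019, both named after their values were seen. In fatty acid oxidation and ketogenesis 10 of 14 were below 0, with a median of -0.084. Its lowest member was Hadhb, a subunit of the mitochondrial trifunctional protein, with -0.30, -1.61 and 0.017 in pairs 1, 2 and 4, which rested on pair 2. Etfdh, which passes electrons from fatty acid oxidation to the respiratory chain, gave -0.39, -0.15 and -0.0043 in pairs 1, 2 and 4. The pair medians of that list were -0.19, -0.14, 0.049 and 0.017 in pairs 1 to 4, with 4 genes measured in pair 3. In cholesterol synthesis and uptake 8 of 12 were below 0 (66.7%), near the 57.6% of all tested probes. The lowest was Lrp1, a lipoprotein receptor, at -0.24, whose sign turned in the ratios taken from the scans by background subtraction.

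Enzymes that handle drugs and steroids were spread in the same way. Of 15 tested cytochrome P450 genes 13 were below 0, beside 57.6% of all tested probes. The list median was -0.082, and none passed the test. Cyp27a1 and Cyp7b1 stand in this list and in that of bile acids. The lowest, Cyp3a25, a member of the drug-metabolising CYP3A family, gave -0.57, -0.53, 0.15 and 0.14 in pairs 1, 2, 3 and 4. Cyp2c55 gave -0.26, -0.039 and -0.052 in pairs 1, 2 and 4 and Cyp2c40 gave -0.0027, -0.11 and -0.13 in pairs 1, 2 and 4, both below 0 in each measured pair. Of 18 conjugation and esterase enzymes 14 were below 0, with a median of -0.064. Ugt2b5, a glucuronosyltransferase, ran from -0.62 in pair 1 to 0.41 in pair 4. In the antioxidant list 10 of 13 were below 0, and Cat, the catalase gene, gave -0.38, -0.39, -0.14 and 0.055 in pairs 1, 2, 3 and 4. Close homologs in the P450 and glucuronosyltransferase families can bind the same probe, so that values of single members are uncertain.

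Amino acid breakdown and the urea cycle had 18 of 27 tested genes below 0 (66.7%) and a median of -0.053. Over all tested probes 57.6% were below 0, so that this share lay near the background. Glud1, glutamate dehydrogenase, was the lowest member on average, with -0.51, -0.71, -0.044 and 0.22 in pairs 1, 2, 3 and 4, so that its pairs lay on both sides of 0. Mccc2, of leucine breakdown, was below 0 in all 3 of its pairs, at -0.25, -0.13 and -0.036 in pairs 1, 2 and 4. The pair medians of the list were -0.13, -0.090, 0.057 and 0.066 in pairs 1 to 4. Among genes of sugar metabolism, Pklr, the liver pyruvate kinase, was below 0 on all 7 arrays that measured it, with -0.38, -0.21 and -0.32 in pairs 1, 2 and 4 and a mean of -0.30 ± 0.12 (SE, n = 3). Its adjusted p was 0.877, and the list of glycolysis and glucose release as a whole had 6 of 13 members below 0. Of 7 tricarboxylic acid cycle genes 6 were below 0, with a median of -0.048. Alas1, the rate-limiting enzyme of heme synthesis in liver, had the lowest mean of all tested probes, at -0.65 ± 0.21 (SE, n = 3). Its ratios were 0.053, -1.35 and -0.66 in pairs 1, 2 and 4, so that pair 1 lay on the other side of 0.

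Those positive acute phase proteins that could be tested had mean values near or below 0 at 72 h. The liver secretes such proteins in larger amounts during inflammation. The array held 17 of their genes. Saa3, Lcn2 and Lbp, with 2 complete pairs each, and Itih4, Hamp, Mt1 and Cd14, with 1, were left untested, and their response stays unknown. Of 10 tested genes 9 were below 0, beside 57.6% of all tested probes. Their median was -0.040, with a range from -0.15 to 0.0031. Taken singly, pair 1 had a list median above 0, at 0.051, against -0.11 for pair 2, -0.051 for pair 3 and -0.072 for pair 4. None of the 10 passed the test, and none had an unadjusted p under 0.05. The lowest was Serpina3n, a serine protease inhibitor, with 0.056, -0.24 and -0.26 in pairs 1, 2 and 4, so that pair 1 was above 0. On single arrays its sign followed the dye. With tumor RNA in Cy3, Serpina3n gave 0.44, 0.10 and 0.055 in pairs 1, 2 and 4, against -0.32, -0.59 and -0.58 in Cy5. The highest member, C4bp, was likewise above 0 in Cy3 and below 0 in Cy5 in all 4 pairs. Saa4, of the serum amyloid A family, stood at -0.056, Crp, C-reactive protein, at -0.059, and Fga, the alpha chain of fibrinogen, at -0.030, all 3 named after their values were seen. Socs3, the feedback inhibitor of STAT3 signalling, gave -0.041, -0.040 and -0.043 in pairs 1, 2 and 4, and its sign turned in the ratios taken from the scans by background subtraction. Its probe passed 1.5 times background in both channels on 2 of 8 arrays.

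Complement and coagulation genes had no shared direction across the pairs. Of 12 complement genes 4 were below 0, beside 57.6% of all tested probes. The 8 above 0 included C1qa, C1qb and C1qc, which macrophages make and which stand also in the Kupffer cell list. C6, of the membrane attack complex, gave 0.10, -0.24 and -0.68 in pairs 1, 2 and 4, and C9, of the same complex, gave 0.44, 0.58 and -0.20 in pairs 1, 2 and 4. Both had pair 4 as their lowest value. Of 14 coagulation genes 11 were below 0, with a median of -0.063 and pair medians of -0.10, -0.13, -0.0076 and 0.020 in pairs 1 to 4. Serpind1, heparin cofactor II, was the lowest of them, with -0.44, -0.23 and 0.027 in pairs 1, 2 and 4.

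In the list of STAT3 targets and cytokine receptors 10 of 13 tested genes were below 0, beside 57.6% of all tested probes. The list median was -0.041. An unadjusted p under 0.05 on the lower side was reached by 3 of these genes, beside 3.13% of all probes. Beside Lifr, Cebpa, a transcription factor that maintains hepatocyte genes, gave -0.17, -0.44, -0.25 and -0.0091 in pairs 1, 2, 3 and 4, with a mean of -0.22 ± 0.067 (SE, n = 4) and an adjusted p of 0.877. It was below 0 in all 4 pairs, though pair 4 lay next to 0. The third was Cebpb, a transcription factor of the acute phase response, at -0.25. Il6ra, the receptor of interleukin 6, stood at -0.055 and Il6st, which encodes gp130, at -0.010, these 3 named after their values were seen. On the other side, Cxcl1, a neutrophil chemokine, gave 0.10, 0.11 and 0.037 in pairs 1, 2 and 4, though its sign turned with single dye orientations also used, and its probe passed 1.5 times background in both channels on 2 of 8 arrays. The immediate early gene Fos gave 0.24, 0.032 and 0.046 in pairs 1, 2 and 4, whose sign turned in the normexp ratios from the scans. Of 18 interferon and innate signalling genes 11 were above 0, with a median of 0.024 that turned to -0.077 in the normexp ratios. Isg15, a ubiquitin-like protein induced by interferon, gave 0.18, 0.10 and 0.10 in pairs 1, 2 and 4, and Cd74, the invariant chain of MHC class II, gave -0.38, -0.26 and -0.00074 in pairs 1, 2 and 4. Cd74 did not reach 1.5 times background in both channels on at least 4 of the 8 arrays.

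Cytosolic ribosomal proteins were the list with the largest share above 0 among those with at least 10 tested members. Of 33 on the array 21 were tested and 19 were above 0, with a median of 0.070, where 57.6% of all tested probes lay below 0. None passed the test, and 2 had an unadjusted p under 0.05 on the higher side, beside 1.95% of all probes. By pair, the medians stood at 0.10, 0.086, 0.17 and -0.074 in pairs 1 to 4, and pair 4 lay on the other side. Pair 3 measured 14 of these genes. The median of the same genes was 0.070 at 18 h and 0.062 at 192 h. Rps25, of the small subunit, gave 0.16, 0.17 and 0.18 in pairs 1, 3 and 4, and Rps10, also of the small subunit, gave 0.13, 0.24 and 0.026 in pairs 1, 3 and 4. The lowest member was Rpl22, of the large subunit, at -0.069, -0.26 and -0.20 in pairs 1, 2 and 4. Ribosomal protein genes have many near-identical pseudogene copies, and the probes may not tell them apart. Of 38 mitochondrial ribosomal proteins 19 were above 0, with a median of -0.0056, and of 11 translation factors 4.

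Oxidative phosphorylation subunits stood above 0 in 22 of 38 tested genes, with a median of 0.030 that turned to -0.074 in the normexp ratios from the scans. Ndufb4, of complex I, gave 0.25, 0.25, 0.16 and 0.030 in pairs 1, 2, 3 and 4 and Atp5j2, of the ATP synthase, gave 0.12, 0.24, 0.17 and 0.037 in pairs 1, 2, 3 and 4. Both were above 0 in all 4 pairs, with means of 0.17 ± 0.079 (SE, n = 4) and 0.14 ± 0.060 (SE, n = 4). Among ER stress and unfolded protein response genes 8 of 18 were above 0, and the highest members after Syvn1 were Herpud1, which works with Syvn1 in ER-associated degradation, at 0.065, 0.55 and 0.21 in pairs 1, 2 and 4, and the ER co-chaperone Dnajb9 at 0.25, the latter named after its value was seen. The ER enzyme P4hb, protein disulfide isomerase, was below 0 in all 4 pairs, at -0.10, -0.26, -0.094 and -0.33 in pairs 1, 2, 3 and 4. The pair medians of the list were 0.062, 0.16, -0.033 and -0.16 in pairs 1 to 4. In autophagy and lysosome genes 10 of 14 were below 0, with pair medians of -0.089, -0.094, -0.054 and -0.046 in pairs 1 to 4. All were on the same side, with 6 genes measured in pair 3. Sqstm1, the autophagy receptor p62, gave -0.20, -0.23, -0.051 and -0.043 in pairs 1, 2, 3 and 4, and Lgmn, a lysosomal protease, gave -0.085, -0.20, -0.059 and -0.048 in pairs 1, 2, 3 and 4. Of 13 proteasome subunits 8 were below 0 (61.5%), near the 57.6% of all tested probes. The lowest was Psma5, of the core particle, at -0.24, -0.48 and -0.0022 in pairs 1, 2 and 4.

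Markers of the other liver cell types were followed as a check on the make-up of the tissue. In such bulk samples fewer cells of a type and less RNA per cell cannot be told apart. Of 11 tested Kupffer cell and macrophage markers 9 were above 0, with a median of 0.049, beside 1438 of 3390 over all probes. An unadjusted p under 0.05 was reached by 2, both on the higher side, beside 1.95% of all probes. The pair medians were 0.10, 0.14, 0.019 and -0.073 in pairs 1 to 4. That of pair 3 was the value of 1 gene, against 11 genes in each other pair. Marco, a scavenger receptor, gave 1.04, 0.33 and -0.13 in pairs 1, 2 and 4, and Aif1, a calcium-binding protein of macrophages, gave 0.27, 0.39 and 0.027 in pairs 1, 2 and 4. Clec4f, the lectin that defines mouse Kupffer cells, gave 0.067, 0.0077 and -0.13 in pairs 1, 2 and 4. Of the 14 markers on the array 11 were brighter than 1.5 times the background, and Cd14, Cd163 and Mpeg1 were not. The part of cell numbers in the values of complement gene C1qb, at 0.081, or of any list above was not tested.

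Neutrophil markers were measured less well, with 3 of 8 tested and Csf3r, Elane, Ly6g and S100a9 not above that brightness. Mpo, myeloperoxidase, gave 0.31, 0.58 and -0.010 in pairs 1, 2 and 4. The other 2 tested lay near 0, with a mean of -0.024 for the chemokine receptor Cxcr2 and 0.023 for the calcium-binding protein S100a8, the latter named after its value was seen. The remaining lists were too thinly measured for a count, with 1 to 4 tested members each for endothelial, stellate, cholangiocyte, T and NK, B, and erythroid and platelet markers. Cd79b, of the B cell receptor, was above 0 in all 3 pairs, at 0.045, 0.16 and 0.066 in pairs 1, 2 and 4, while Cd79a, its partner chain and the other tested B cell marker, gave -0.075, -0.051 and 0.14 in pairs 1, 2 and 4. Gp1bb, of the platelet receptor for von Willebrand factor, was below 0 in all 3, at -0.18, -0.13 and -0.080 in pairs 1, 2 and 4. Of 8 tested cell cycle genes 4 were above 0, and the highest was the proliferation marker Mki67, with 0.42, 0.36 and -0.039 in pairs 1, 2 and 4.

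**Figure D4:**
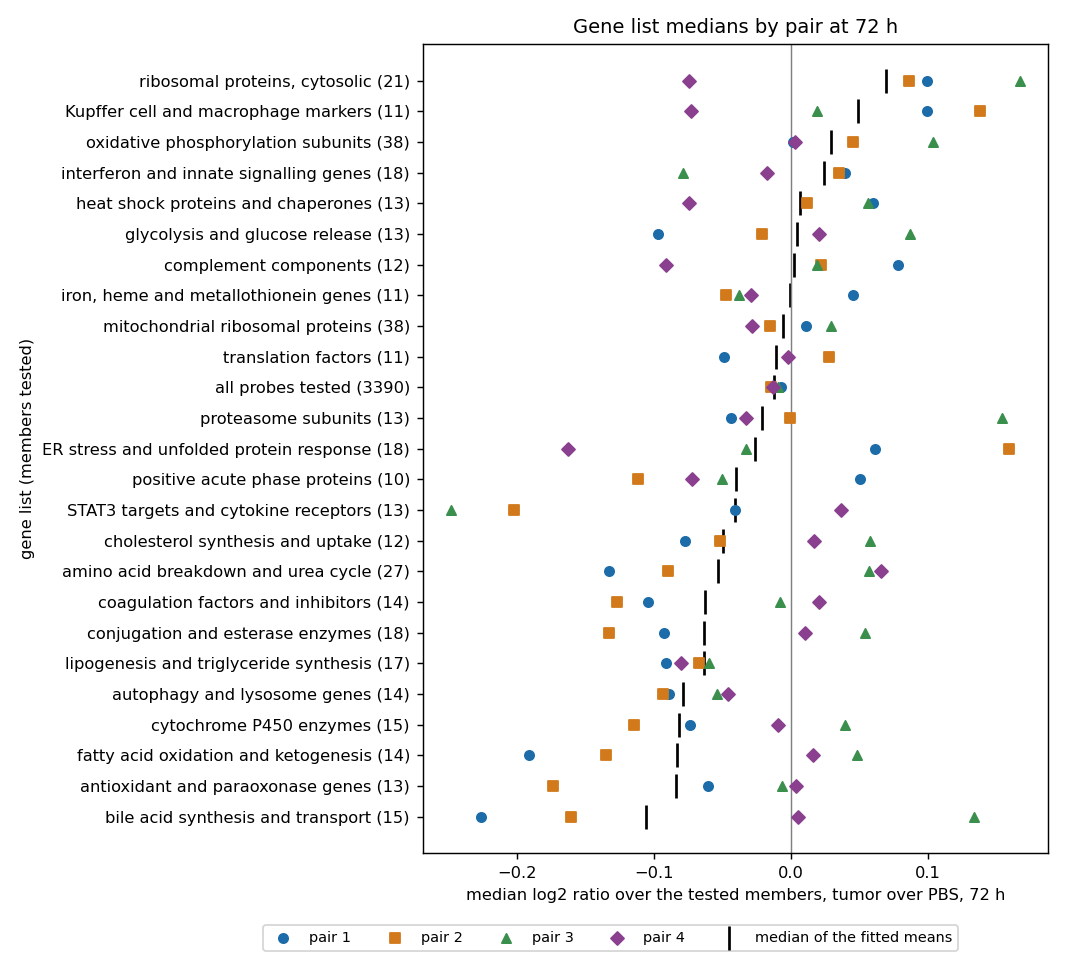
Points are the median log2 ratio, tumor over PBS, over the tested members of a gene list in each pair at 72 h (x axis), for lists with at least 10 tested members (y axis, members in brackets). Black marks are the median of the fitted means. Pair 3 often measured few members, with 1 in the Kupffer cell list. In bile acid genes pairs 1 and 2 lie at -0.23 and -0.16 and pairs 3 and 4 above 0, while in lipogenesis all 4 pairs lie between -0.091 and -0.060.

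The pairs differed in direction as much as in size. Pairs 1 and 2 had the same sign in 2117 of 3316 probes measured in both (63.8%). Of 2065 such probes that pair 4 also measured, pair 4 had that sign in 860 (41.6%). The arrays of pairs 1 and 2 carry lower running numbers in their titles than those of pairs 3 and 4, and the labels say nothing more of that order. With pairs 1 and 2 alone, 0 of 4462 probes passed the test, with 422 at an unadjusted p under 0.05, and with pairs 3 and 4 alone 0 of 719, with 13. Whether the running number or the mice account for the difference cannot be told apart.

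The last question was whether 72 h stood apart from the earlier and the later time. Both differences came from the same fit, over probes with at least 3 pairs at both times. Between 72 and 18 h, 0 of 2140 probes passed (0%), and 55 had an unadjusted p under 0.05 (2.57%). Herpud1 had the smallest p, with 0.065, 0.55 and 0.21 in pairs 1, 2 and 4 at 72 h and -0.27, -0.80 and -0.34 in pairs 1, 3 and 4 at 18 h. Every measured pair was above 0 at 72 h and below 0 at 18 h, and the difference was 0.74 ± 0.16 (SE, n = 3 pairs at each time), with an adjusted p of 1.00 in limma's fit. Grcc10, which has no role assigned here, went the other way, with 0.26, 0.43 and 0.56 in pairs 1, 3 and 4 at 18 h and -0.10, 0.013 and -0.18 in pairs 1, 2 and 4 at 72 h. Sar1b, a GTPase of the vesicles that leave the ER, lay at a mean of -0.33 at 18 h and 0.0090 at 72 h. Mdh2, mitochondrial malate dehydrogenase, lay at 0.15 and -0.065, and Narf at 0.041 and -0.13.

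Between 72 and 192 h, 0 of 1626 probes passed (0%), and 55 had an unadjusted p under 0.05 (3.38%). Actb again had the smallest p, with 0.26, 0.21 and 0.081 in pairs 2, 3 and 4 at 192 h against the values below 0 at 72 h. Its difference of -0.43 ± 0.072 (SE, n = 4 pairs at 72 h and 3 at 192 h) had an adjusted p of 0.181 in limma's fit. At 18 h its ratios were 0.050, -0.027 and 0.050 in pairs 1, 2 and 4, so that 72 h was the time with the lowest mean of the 3. Atp5j2 gave -0.31, -0.062 and -0.34 in pairs 2, 3 and 4 at 192 h, all below 0, where its pairs at 72 h were all above 0. Slc20a2 gave 0.027, 0.079, 0.063 and 0.16 in pairs 1, 2, 3 and 4 at 192 h, all above 0, where its pairs at 72 h were all below 0. Cpn2 had means of 0.077 at 192 h and -0.18 at 72 h, and its mean at 18 h was -0.23. Slc16a11, a carrier of monocarboxylates, and Ddb1, an adaptor of a ubiquitin ligase that acts in DNA repair, completed the 6 genes of smallest p, with means of -0.17 and 0.11 at 192 h and 0.088 and -0.083 at 72 h. Adjusted p-values of these last 5 genes were 1.00.

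**Figure D5:**
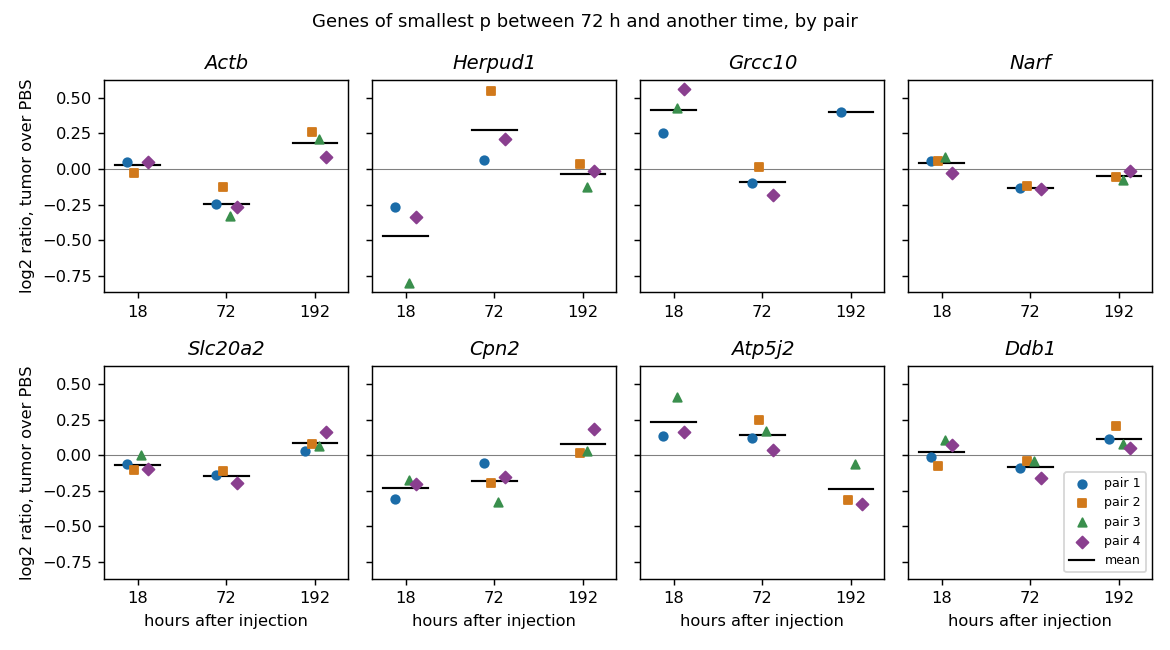
Each panel plots the log2 ratios, tumor over PBS (y axis), of the pairs measured at 18, 72 and 192 h (x axis) for 1 gene among those of smallest p in a difference between times, with a bar at the mean. Actb lies below 0 in 4 pairs at 72 h and above 0 in 3 pairs at 192 h, and Herpud1 lies below 0 at 18 h and above 0 at 72 h.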

How the data were processed

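Liver RNA was measured on 2-colour arrays of oligonucleotides, in-house prints per the labels' protocols, with tumor and PBS RNA in the channels. The log2 ratios were deposited by the authors as the value table of the series. Their scale, centring and direction are unstated. Set against the scans, they correlated at 0.63 to 0.79 on the 72 h arrays, their medians lay between -0.0062 and 0.0095, and dye swaps had been turned the same way. For bright spots their spread was 0.69 to 0.87 times that of log2 ratios from the scans, which leaves the base of the logarithm (2 or e) open. Per the file headers, each of the 3 scans per array gives spot intensity of channels A and B corrected for background, and the deposited saturation factor is a fraction of each spot. Their positions were tied to probe numbers by block order. Neither the image analysis software nor the normalization is given in the sources used here. The number of arrays limits the precision.

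Ratios were averaged over the dye swaps of a pair. limma 3.58.1 (lmFit and eBayes, R 4.3.3) was fitted to all 12 pairs with a coefficient per time point, over probes with both orientations in at least 3 of 4 pairs at 72 h. P-values are two-sided, with Benjamini-Hochberg adjustment over all tested probes and a threshold of 0.05. An SE is that of the fit. Its spread is estimated over all 3 times and drawn towards that of all probes, so that it can be smaller or larger than that of the 72 h pairs alone. The fit was also run on simulated ratios, drawn independently for each probe and pair and without a dye effect. The real ratios carried a dye effect, so that this run checks the code and not the results. Symbols were taken from the annotation table of the platform. Of 10080 probes, 9066 had 1 symbol, 12 several and 1002 none, and 8977 identifiers were matched in a RefSeq list of assembly GRCm38.p6. Of the tested probes, 255 had no symbol and 3 had several, and none of these is named. For the 39 genes with several probes the brightest stood for the gene in a list. Named genes are the 12 of smallest p on each side of 0, in each list up to 4 of largest mean with 1 sign in every pair and the lowest and highest member, up to 6 a side with 1 sign on all 8 arrays, and the 6 of smallest p of each difference between times. The members, lists and rules were chosen with earlier results of these data known. Replicate numbers were not used to pair the time points, as the labels do not say whether equal numbers share anything. Deviations of same-numbered pairs correlated at -0.27 to 0.47, which does not settle whether they do. Alternatives were ratios from the scans (subtraction or normexp with an offset of 50, then loess with a span of 0.3), median centring, other probe filters, a dye coefficient, blocks, subsets of pairs, a trended fit and each pair left out.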

Additional observations from a re-analysis of the deposited data

Results flagged for a closer look

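In 63 named genes and list medians with a value in all 4 pairs at 72 h, the gap of the outermost pair to its neighbour was set against the whole range, and 2 exceeded Dixon's critical value. Chance flags about 1 in 20 such groups. Plg, which encodes plasminogen, stood at -0.17 in pair 4 and between -0.022 and -0.0076 in the other pairs, and its mean of -0.055 turned above 0 in the ratios taken from the scans. The median of the neutrophil markers stood at 0.14 in pair 1 and between -0.025 and -0.0018 in the others, and it rested on 3 tested genes at most. No difference between 72 h and another time passed the test of that difference.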

How the results depend on the processing

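No probe passed the test at 72 h in any of the 18 alternatives run. None differed between 72 h and either other time in the alternatives that give those differences, which leave out the fit of the 72 h pairs alone. The smallest adjusted p at 72 h ran from 0.178, with single dye orientations also used, to 0.996, with pairs 3 and 4 alone, in limma's fits. At an unadjusted p under 0.05 there were 412 of 5258 probes with ratios from the scans after background subtraction and 430 of 5370 with normexp, against 172 of 3390. Leaving out a pair gave 92, 50, 165 and 327 such probes without pairs 1, 2, 3 and 4. Without pair 2 the count was 31 for the difference from 18 h and 30 for that from 192 h, in place of 55 for either. Without pair 4 the count for the difference from 192 h was 95. With the replicate block, which the labels do not state as a pairing, 0 of 2749 probes passed and 129 had an unadjusted p under 0.05. Of 152 named genes, 108 kept their sign in every alternative that gave them a value, which was 14 to 18 for a gene, among them the 24 of smallest p, Csf2ra and F5. Those 24 were chosen by p from these same values, so that a kept sign is no separate support for them. Genes that lacked pair 3 had no value with pairs 3 and 4 alone. Syvn1, with pair 4 at -0.12, was 1 of these. Cxcl1 stood at -0.045 with single dye orientations also used. Of 38 list medians 11 kept theirs in every alternative that gave a value, including lipogenesis, ribosomal proteins, acute phase proteins and autophagy. The medians of bile acid genes, P450 enzymes, conjugation enzymes, coagulation factors and Kupffer cell markers turned only with pairs 3 and 4 alone. Median total over background intensity of the 72 h arrays was 1.42 to 2.46 in the middle scan. In the brightest scan up to 25.9% of measured spots were marked as saturated at least in part. That share was from the array of pair 3 with tumor RNA in Cy5, with 1069 measured spots, and the other arrays reached 16.45% at most. Both limit what dim and very bright probes can show.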
